A study of Arabidopsis thaliana with 4 samples.

Results

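FRIGIDA (FRI, AT4G00650), the vernalization gene VIN3 (AT5G57380) and the autonomous-pathway genes FCA (AT4G16280), FVE (AT2G19520), FLD (AT3G10390) and LD (AT4G02560) are 6 regulators of flowering time that act on the floral repressor gene FLC. Their chromatin was examined in 4 natural accessions of Arabidopsis thaliana through the DNase I peaks that lie in, or within 2 kb of, each gene. These are 6 of 27444 nuclear protein-coding genes, and their windows held 21 peaks that merge into 7 of the 36153 regions of the whole series. The genes were taken by name and locus and no measured value entered the rule, but they were chosen with earlier results of these data known.

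DNase I-seq releases small fragments where nearby cuts fall in open DNA, and 1 library was made from whole 7-day-old seedlings of each of the accessions Bay-0, Est-1, Tsu-1 and Bur-0. All 4 carried the INTACT line UBQ10:NTF::ACT2:birA, in which a biotin tag on nuclei allows their capture from many cell types together, and were grown on agar in long days (16 h light, 8 h dark) after 2 to 4 days of stratification. No weeks-long cold treatment is named in the labels. The labels give Col-0 as the genetic background of every sample beside the accession in its title. Samples labelled Tsu-1 appear as Tsu-0 in the series text. Peaks were placed on the TAIR10 reference, so reads that differ from it can be lost at a gene known for sequence variation such as FRI. Because each accession has 1 library, differences between accessions could not be checked against replicates and no test was run. Sequencing depth is unknown. The nuclear lists ran from 25298 peaks in Bur-0, the shortest, through 27388 in Tsu-1 and 28821 in Bay-0 to 29699 in Est-1, whose list comes to exactly 30000 peaks once organelles are added. As a check of the labelled tissue, 3 of 3 green-shoot markers and 4 of 4 root markers had a peak within the same window in every accession, as did 63.3% of all protein-coding genes. The root marker EXPA7 passed only through weak calls, with strongest ranks from 2.96 in Bur-0 to 37.6 in Tsu-1, and none of its regions was held by every list. Of 4 seed storage genes, SESA2 and SESA3 had no peak in any accession and SESA1 had one in Bay-0 and Est-1, but CRA1 had peaks in all 4, with strongest ranks of 76.6 to 92.7, so the check does not set seedling genes apart from every seed gene.

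FLC encodes a MADS-box repressor that delays flowering. FRI is a scaffold protein of a complex that raises FLC transcription, and natural loss-of-function alleles of FRI, among them the one in the Col-0 reference, give early flowering. The autonomous pathway lowers FLC independently of day length, through RNA processing of FLC transcripts (FCA, FY, FPA) and through chromatin (FVE, FLD). Vernalization, a long cold period, induces VIN3, whose protein works with Polycomb proteins to silence FLC.

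Called peaks at these 6 genes were few and mostly weak. FRI and LD had a peak in the lists of all 4 accessions, FCA in 3, VIN3 in 1, and FVE and FLD in none. Over all protein-coding genes, 63.3% (exact 95% interval 62.8 to 63.9, counting error only) had a peak in every list, 8.14% in exactly 3, 4.77% in exactly 1 and 18.8% in none. Counted by accession, 4 of the 6 genes had a peak in Bay-0, 3 in Est-1, 3 in Tsu-1 and 2 in Bur-0, where 75.7%, 76.4%, 71.6% and 68.5% of all protein-coding genes did. With 6 genes the difference from these shares carries little weight. The authors' signal is used here as a percentile rank within a list, with 100 for the strongest nuclear peak. None of the 6 had a peak ranked above 50 in every list, which 33.1% of all protein-coding genes had, and FRI alone had one in some list, which 51.7% of all had. Of the 21 peaks, 4 ranked above 50, all of them in the FRI window, 2 in Bur-0 and 2 in Est-1. When peaks were ranked by the deposited −log10 p value instead, Bay-0 also passed 50 at FRI, with a rank of 52.2.

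**Figure D1:**
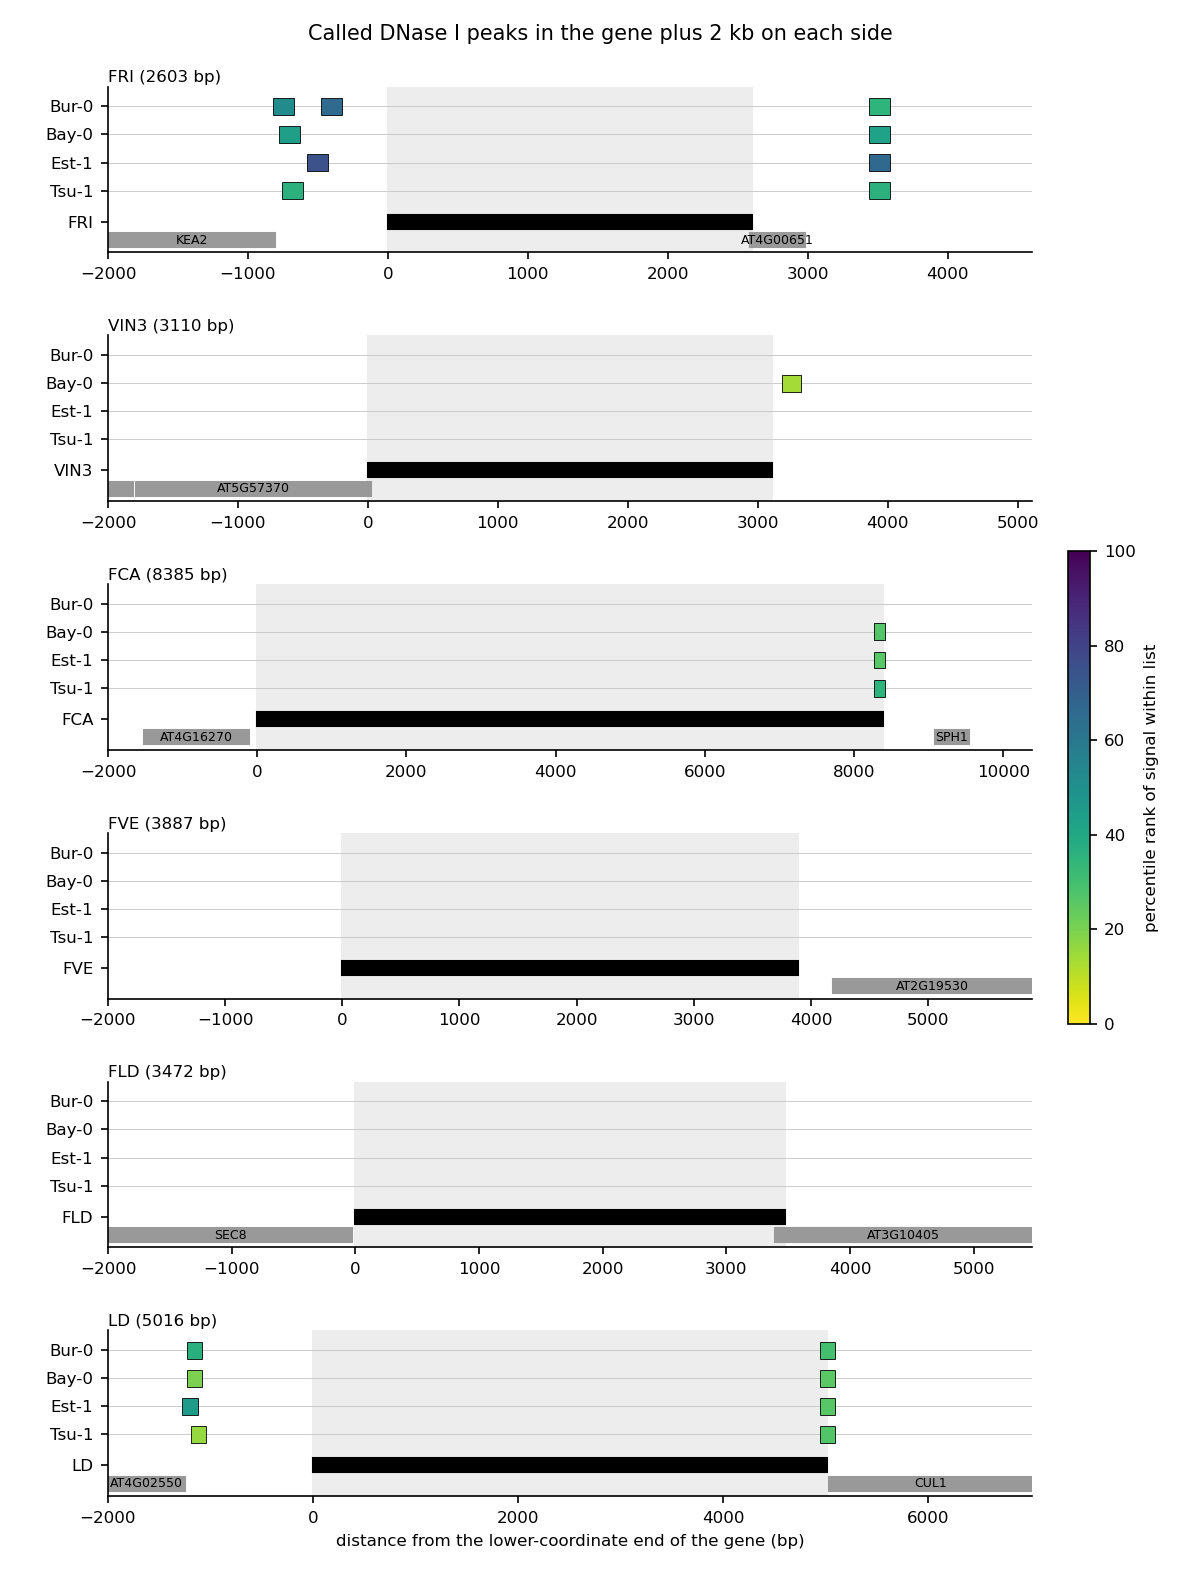
Peaks called in each accession (coloured boxes, 150 bp wide, coloured by percentile rank of signal within the list) along each gene (black bar, shaded) and 2 kb on each side. The x axis is the distance in bp from the gene end with the lower coordinate and grey bars are neighbouring protein-coding genes; FVE and FLD have no box, and no box lies wholly inside a gene.

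No peak lay wholly inside any of the 6 gene spans, which together cover 26473 bp. In all protein-coding genes 18.6% had such an internal peak in at least 1 list. Peaks that touched a span did so only across its end, at FCA and LD, so 2 of the 7 regions touched a member. A peak touched 45.9% of all protein-coding genes in some list. The other 5 regions stood 76 to 1044 bp outside the genes, and the strand of the genes is not given in the gene table used, so upstream and downstream are not told apart.

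The FRI window had the strongest peaks, on the side facing KEA2, which encodes a chloroplast potassium-proton antiporter. The 803 bp between the 2 genes, with the very end of KEA2, held 5 peaks within 490 bp (chromosome 4, 268081 to 268570), and every accession had at least 1 of them. Bur-0 had a peak at 268081 to 268230 with a signal of 133 and a rank of 51.6. Bay-0 was called at 268121 to 268270, with a signal of 140 and a rank of 43.9. Tsu-1 was called at 268141 to 268290, with a signal of 86 and a rank of 36.2. These 3 overlapping calls were offset by up to 60 bp, and the Bur-0 call reached the end of KEA2. Est-1 had no peak there and was called 30 bp beyond, at 268321 to 268470, with a signal of 274 and a rank of 74.7. Bur-0 alone had a further peak, at 268421 to 268570, which overlapped the Est-1 call and had a signal of 168 and a rank of 65.7. The 2 merged regions were thus held by 3 and by 2 accessions, and Est-1 and Bur-0 were the accessions with calls nearest to FRI, 430 and 330 bp away against 630 bp in Bay-0 and 610 bp in Tsu-1. When peaks up to 150 bp apart were merged, they became 1 region held by all 4. The 2 regions lay 0 and 223 bp from KEA2, and 610 and 330 bp from FRI. They were nearer to KEA2 and cannot be given to FRI alone.

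On the other side of FRI, 837 bp beyond its end and 461 bp beyond the small gene AT4G00651, all 4 accessions were called at the same 150 bp (chromosome 4, 272341 to 272490). The rank was 66.0 in Est-1 (signal 229), 42.5 in Bay-0 (137), 36.2 in Tsu-1 (86) and 35.0 in Bur-0 (105). Est-1 stood above the other 3, which lay close together. The spread of 31.0 rank points was reached or passed by 17.6% of the 19642 regions held by every list, whose median spread was 17.6. Est-1 thus had the highest rank of any accession at each FRI region in which it was called. The next regions outside the FRI window were 2577 bp away at RH8, a DEAD-box RNA helicase gene, in all 4 accessions, and 7690 bp away on the KEA2 side.

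VIN3, which is known to be induced by prolonged cold, had 1 peak, in Bay-0. It lay 76 bp beyond the gene at chromosome 5, 23249581 to 23249730, with a signal of 80, or 0.516 of the list median, a rank of 13.3 (1.26 with lists of equal length) and a −log10 p of 4.97. No peak of Bur-0, Est-1 or Tsu-1 lay in the window. Their nearest peaks were 5724 bp from VIN3 in Est-1 and Tsu-1, on the side of the clock gene ZTL, and 7904 bp away in Bur-0, where 8.80% of genes were at least as far from a peak.

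**Figure D2:**
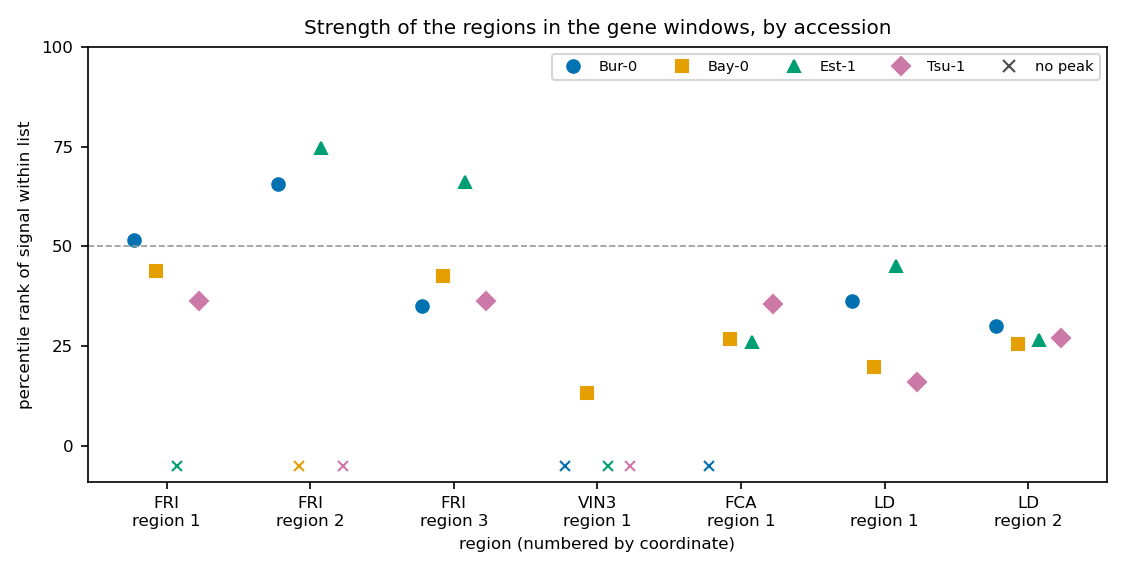
Percentile rank of signal within its list (y axis) for each of the 7 regions in the gene windows (x axis), with 1 symbol per accession; crosses below 0 mark accessions with no peak and the dashed line marks rank 50. All points above 50 are in the FRI window, those of Bur-0 in regions 1 and 2 and those of Est-1 in regions 2 and 3. LD region 2 has the narrowest spread of the regions held by all 4 in the lists as deposited, though not a narrow one (16.3 points) with equally long lists.

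FCA, an RNA-binding protein that acts on the processing of FLC antisense RNA, is the longest of the 6 genes at 8385 bp, and 1 region stood at its end with the higher coordinate (chromosome 4, 9214861 to 9215010). The call had the same coordinates in the 3 accessions that held it. The rank was 35.5 in Tsu-1 (signal 85), 26.8 in Bay-0 (107) and 26.0 in Est-1 (113), and the nearest other gene, SPH1, was 669 bp away. With lists of equal length the ranks were 30.1 in Tsu-1, 16.7 in Bay-0 and 13.1 in Est-1. Bur-0 had no peak there, and its nearest peak was 2386 bp from the opposite end of FCA, just outside the window. That outer region, at the RNA polymerase subunit gene NRPB9B, was called in all 4 accessions with ranks from 25.6 in Tsu-1 to 49.8 in Est-1.

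LD, a homeodomain protein of the autonomous pathway, was the only one of the 6 with all of its regions held by every accession. With peaks up to 150 bp apart merged, this was true of FRI as well. At its end with the higher coordinate, all 4 lists had a call at the same 150 bp (chromosome 4, 1128421 to 1128570). The rank was 29.9 in Bur-0 (signal 98), 27.0 in Tsu-1 (74), 26.4 in Est-1 (114) and 25.5 in Bay-0 (104). The 4 ranks differed by 4.41 points in the lists as deposited, which differ in length. When all lists were cut to the length of the Bur-0 list, 25298 peaks, the ranks were 29.9 in Bur-0, 21.0 in Tsu-1, 15.1 in Bay-0 and 13.6 in Est-1, a spread of 16.3 points against a median of 17.7 over regions held by every list. This call also touched CUL1, the cullin scaffold of SCF ubiquitin ligases, because only 24 bp part the 2 genes, so it cannot be given to LD alone. On the other side, 1044 bp from LD, a region whose Est-1 call reached AT4G02550 (chromosome 4, 1122201 to 1122430) had ranks of 45.1 in Est-1 (signal 158), 36.4 in Bur-0 (107), 19.7 in Bay-0 (92) and 16.0 in Tsu-1 (59). Its calls were offset by up to 80 bp between accessions and its spread was 29.1 points. The order depended on list length, since with equally long lists Bur-0 (36.4) and Est-1 (35.5) lay together above Tsu-1 (9.05) and Bay-0 (8.49). Calls at identical coordinates in all 4 lists, as at the LD and CUL1 boundary and on the far side of FRI, made up 20.8% of the regions held by every list.

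FVE and FLD had no peak in any accession. FVE, also named MSI4, is a WD40-repeat protein of chromatin complexes, and in all 4 accessions its nearest peak was the same distance away, 9458 bp, in a region touching EER5 (chromosome 2, 8469101 to 8469250). That region was strong, with ranks of 82.0 in Est-1, 78.7 in Tsu-1, 78.0 in Bay-0 and 73.2 in Bur-0. From 4.75% of genes in Est-1 to 6.94% in Bur-0 were at least as far from a peak as FVE. FVE lay in a stretch of 27570 bp with no peak in any list (chromosome 2, 8441531 to 8469100), which held 6 protein-coding genes, among them the cytokinin oxidase gene CKX2 and LBD8. Of all protein-coding genes, 5.24% lay wholly in a stretch at least as long.

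FLD, a relative of lysine-specific histone demethylases, lay in a stretch of 18750 bp with no peak in any list (chromosome 3, 3216371 to 3235120). It shared this stretch with 2 other protein-coding genes, among them SEC8, an exocyst subunit gene whose span ends 25 bp from FLD. Of all protein-coding genes, 9.39% lay in a stretch at least as long. The nearest peak was 2589 bp away in Bur-0 and Bay-0, with ranks of 4.99 and 14.5, 5629 bp away in Est-1 and 6029 bp away in Tsu-1. FVE and FLD span 3887 and 3472 bp, longer than the median protein-coding gene (2078 bp), and 12.0% of the 4840 genes of at least 3472 bp had no peak in any list. A gene without a called peak is not thereby shown to be inaccessible.

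**Figure D3:**
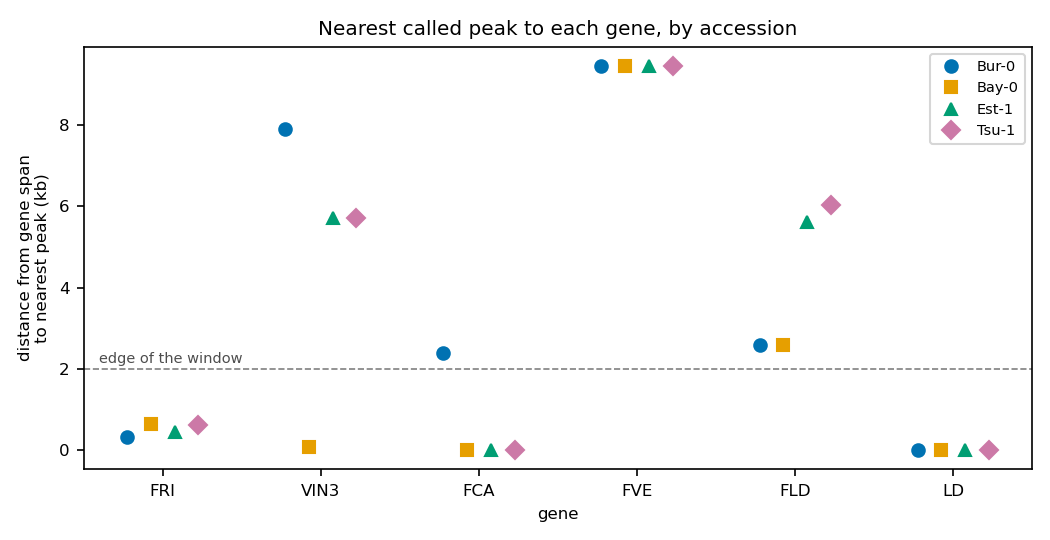
Distance in kb from each gene span to the nearest called peak (y axis) for the 6 genes (x axis), with 1 symbol per accession; 0 means that a peak touches the gene and the dashed line is the edge of the 2 kb window. FVE is 9458 bp from a peak in all 4 accessions, and VIN3 and FLD differ between accessions.

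Of the 7 regions, 3 were held by every accession (42.9%, exact interval 9.90 to 81.6), 2 by 3, 1 by 2 and 1 by 1. Of all nuclear regions 54.3% were held by every list and 17.5% by 1 list. With peaks up to 150 bp apart merged, 4 of 6 regions (66.7%) were held by every accession, beside 60.4% of all regions, so the share lay below or above that of all regions depending on the merging. The number of peaks in the 6 windows was 6 in Bay-0 and 5 in each of the other 3 accessions. All protein-coding genes had on average 1.74 peaks per window in Bay-0, 1.79 in Est-1, 1.62 in Tsu-1 and 1.51 in Bur-0. Bay-0 alone had a peak at all 4 of the genes with peaks, through its weak call at VIN3.

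Some genes elsewhere had a pattern of ranks like that of a member, measured as the mean absolute difference of the strongest peak's rank over the 4 lists, with no peak counted as 0. The closest to FRI was AT5G39785, with a mean difference of 2.67 points, and 7 genes lay within 5 points of FRI. The closest to LD was LCR12, with a difference of 2.73, and the closest to FCA was AT5G24510, with 0.696 and likewise no Bur-0 peak. Within 5 points lay 79 genes for LD and 144 for FCA. VIN3 was matched exactly by AT1G33265 and 4 further genes, but 6803 genes lay within 5 points of it, among them the genes with no peak. FVE and FLD share their empty pattern with 5171 other genes each, counting each other.

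In the wider set of 20 genes of the FRI complex, vernalization and the autonomous pathway with FLC, 11 had a peak in every accession, 4 in some and 5 in none, where 63.3% of all protein-coding genes had one in every list and 18.8% in none. Without the 6 genes described above, 9 of 14 had a peak in every accession and 3 in none, close to the shares of all genes. The median of the lowest rank over the 4 lists, with no peak as 0, was 9.37 in the 20 genes, 21.0 in the 14 and 21.3 over all protein-coding genes. The 8 genes of the autonomous pathway, 4 of them members, included 4 with no peak in any list (18.8% of all genes, and 12.0% of those of at least 3472 bp), FVE and FLD together with FY, a polyadenylation factor, and FPA, an RNA-binding protein. Their nearest peaks were 3209 bp away for FY in each accession and 4076 to 5316 bp away for FPA. LD, the KH-domain gene FLK and the histone demethylase gene REF6 were called in all 4 accessions, and none of the 8 ranked above 50 in every list, as 33.1% of all genes did. At FLK this depended on the edge of the window. A region 1916 bp from FLK, which touched the neighbouring gene DAN1, was called in all 4 accessions, with ranks from 67.4 in Tsu-1 to 75.6 in Est-1. Only its Bur-0 call, ranked 68.6, reached into the window. FCA and the vernalization gene VRN5, which encodes a PHD-finger partner of VIN3, both lacked a Bur-0 call alone, and the VRN5 ranks were 26.8 in Bay-0, 25.6 in Tsu-1 and 24.0 in Est-1.

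The 6 genes of the FRI complex had peaks in every accession in 5 cases, against 63.3% of all genes. The exception was FRL1, a FRI relative, whose nearest Tsu-1 peak lay 2014 bp away, at the edge of the window. The strongest of the 20 genes was FES1, a zinc-finger protein that FRI needs, with ranks of 97.6 in Tsu-1, 97.2 in Est-1, 95.9 in Bay-0 and 94.9 in Bur-0. This region (chromosome 2, 14310781 to 14310930) was 781 bp from FES1 and 172 bp from AT2G33830. FRL2 ranked between 75.9 and 82.7, in a region that touched both FRL2 and ACBP6, an acyl-CoA-binding protein gene. SUF4, a zinc-finger protein that works with FRI at FLC, was called in all 4 accessions 7 to 67 bp from the gene, with ranks of 26.4 in Bay-0, 15.1 in Bur-0, 5.55 in Tsu-1 and 1.93 in Est-1. Among the 5 vernalization genes, VEL1, another PHD-finger relative of VIN3, ranked between 75.7 and 84.4. Its strongest peak lay in a region 459 bp away in Bay-0, but 1879 bp away, near the window edge, in Bur-0, Est-1 and Tsu-1. VRN2, a Polycomb subunit, had no peak, the nearest being 5538 to 5862 bp away. FLC itself had 2 regions held by every accession, and both touched AT5G01675 as well. The region at chromosome 5, 3173161 to 3173390 ranked 49.5 in Tsu-1, 28.4 in Bur-0, 24.2 in Bay-0 and 22.3 in Est-1. The other, 12 bp from FLC, ranked lowest in Tsu-1, at 21.3, with 25.2 for Est-1, 30.7 for Bur-0 and 32.6 for Bay-0. The strongest FLC peak thus lay in different regions in Tsu-1 and in the other accessions.

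**Figure D4:**
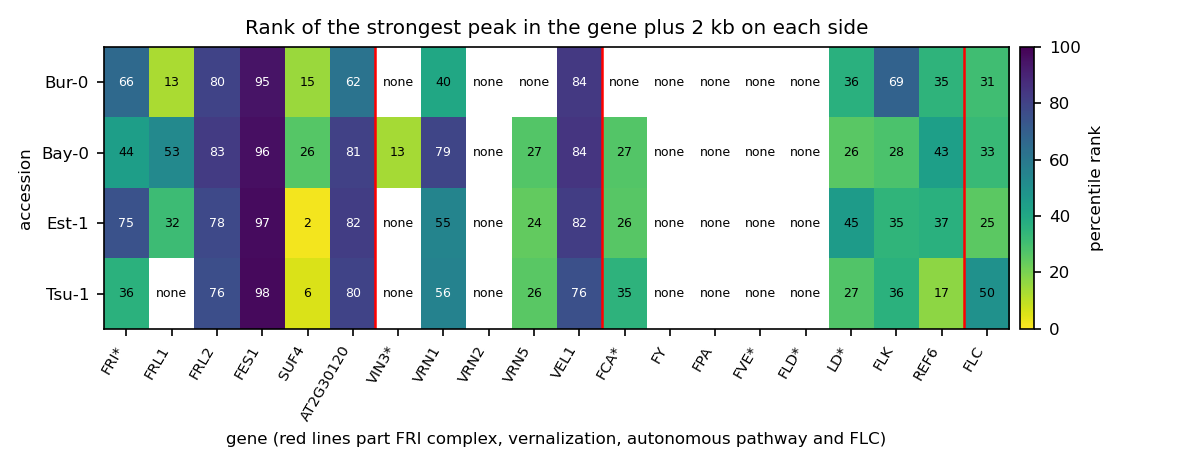
Percentile rank of the strongest peak within 2 kb of each gene (columns, the 6 genes described above marked with an asterisk) in each accession (rows), with numbers rounded to whole points and white cells where no peak was called. FES1 has the darkest column, and FVE, FLD, FY, FPA and VRN2 are white in all 4 accessions.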

How the data were processed

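The labels describe nuclei captured through biotin and digested with DNase I (45 units, 3 minutes, 25°C), and sequencing of small double-cut fragments. Per the submitters' processing notes, Bowtie 0.12.7 and the TAIR10 build were used. How and at what threshold peaks were called, and how reads were filtered, is not stated in the labels or files. The 4 lists, 1 per library, have narrowPeak columns and no header. The signal column holds the authors' whole number for each peak with no scaling stated, and it was used only as a percentile rank within a list. The deposited −log10 p value of each peak has a ceiling of 324.

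Peaks of the 5 nuclear chromosomes were used (Python 3.11.15, pandas 2.3.3, scipy 1.17.1). A peak counted for a gene when it overlapped the gene span plus 2000 bp on each side by at least 1 bp, and touching or overlapping peaks were merged into regions. Gene spans came from a RefSeq table of TAIR10.1, which gives no strand or sequence, so the planned motif search was not run. On each chromosome the overlap of regions with gene ends was highest at a shift of 0 bp, tested up to 20000 bp. All 31 listed genes were found. Intervals are exact (Clopper-Pearson, 95%) and cover counting error only. Overlap, merging and ranking were tested on simulated data and 9 of 9 checks passed.

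The genes and lists were chosen with earlier results of these data known. Named were the 6 genes and, of the wider list, genes with a peak in fewer than 4 accessions or the 3 highest lowest ranks. The most alike gene of each member with a peak, and neighbours of their regions, were named too. For FVE and FLD, tied with 5171 genes each, no alike gene is named. Other genes of the wider list, and neighbours of the nearest outside regions and long stretches, were picked with their values in view. The alternatives tried were other windows, overlap, list lengths, merging and ranking column; leaving out each accession, ranks per region with equal lists and the share of all regions after merging were added after seeing the data.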

Additional observations from a re-analysis of the deposited data

How the results depend on the processing

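The counts for the 6 genes kept within 1.5 times of their reported values with a window of 1 kb, with peak midpoints, with lists of equal length (25298 peaks) and with peaks up to 150 bp apart merged. With the gene span alone, 1 gene (LD) had a peak in every list and 1 (FCA) in some, and FRI had none. Under this setting 2 regions were counted, 1 of them in every list, and the wider list had 3 genes with a peak in every list. With only the stronger 50% of each list, 0 genes had a peak in every list and 1 had one in some, 3 regions were counted, 0 of them (0%, upper limit 70.8%) in every list, and the wider list had 4 such genes. Fewer peaks enter under both settings by construction. The share of all protein-coding genes with a peak in every list was 54.8% with 1 kb, 22.7% with the span alone, 62.7% with midpoints, 59.7% with equal lists and 33.0% with the stronger part. Leaving out each accession in turn gave 63.9% to 68.1%, and 1 to 2 genes with a peak in some lists only: without Bur-0, FCA counted as held by every list, and without Bay-0, VIN3 had no peak. Of 57 strongest-peak ranks recomputed, 34 moved by less than 5 points or not at all. A change of window or overlap leaves the rank of a given peak as it was, so much of this was fixed in advance. Of the 23 that moved further, 9 were with equal lists, 8 by −log10 p and 2 with the stronger part. The gene span and the 1 kb window each gave 2. The VIN3 rank went to 1.26 with equal lists and 7.77 by −log10 p. Ranking by −log10 p took FRI to 72.6 in Bur-0, 52.2 in Bay-0 and 44.4 in Tsu-1. The 1 kb window took LD to 26.4 in Est-1. Equal lists also took FRI to 36.0 in Bay-0 and 30.9 in Tsu-1. They took FCA to 13.1 in Est-1 and 16.7 in Bay-0, and LD to 15.1 in Bay-0. Ranks of weak peaks in the longer lists thus depend on list length. No paired analysis was possible because each accession has 1 library and no test was run. Unknown depth limits what an absent call shows.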
